A study of Mus musculus with 9 samples.

Results

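The early growth response genes Egr1, Egr2 and Egr3 and the NAB corepressor genes Nab1 and Nab2 were followed in mouse bone marrow-derived mast cells (BMMCs). These 5 genes were chosen by name, as the rows of the deposited count table whose Ensembl identifiers map to the symbols, out of 47643 genes in the table. In GENCODE annotation of GRCm38, Egr1 (ENSMUSG00000038418) lies on chromosome 18 at 34859823-34864984, Egr2 (ENSMUSG00000037868) on chromosome 10 at 67535475-67542188 and Egr3 (ENSMUSG00000033730) on chromosome 14 at 70077203-70082614, all on the plus strand. Nab1 (ENSMUSG00000002881) lies on chromosome 1 at 52457294-52500679 and Nab2 (ENSMUSG00000025402) on chromosome 10 at 127660918-127668568, both on the minus strand. All 5 are protein-coding, and the counts were taken over whole genes, so that transcript isoforms were not told apart.

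Cells came from the bone marrow of C57BL/6 mice and were grown for at least 4 weeks in medium with 30% WEHI-3-conditioned medium, a source of IL-3, and 20% serum. The Control group was not stimulated, the IgE+BSA group was stimulated through the high-affinity IgE receptor, by DNP-IgE and DNP-BSA according to the methods of the study, and the IgE+BSA+Luteolin group was stimulated and also received the flavonoid luteolin, for which the labels give 10 µM and 24 h. Each group had 3 libraries of polyadenylated RNA. Whether luteolin was given before or after stimulation could not be settled from the sources, no group received luteolin alone, and neither the age of the mice nor whether replicates were separate cultures is stated, so that p-values measure only the spread between these libraries. The length of stimulation before RNA was taken is not given in the sources used here, and levels over time were not compared. A lower level in bulk RNA cannot be told apart from a change in timing or from fewer cells that make the transcript.

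EGR proteins are zinc finger transcription factors that bind GC-rich sites. Their genes belong to the immediate-early genes, which are switched on within minutes of receptor signaling through the MAP kinase cascade, serum response factor (SRF) and its ternary complex partners, without new protein synthesis. NAB1 and NAB2 bind a shared inhibitory domain of EGR1, EGR2 and EGR3 and, among other partners, recruit the chromatin remodeler CHD4 of the NuRD complex, which represses EGR target genes. Nab2 is itself known as an EGR-induced gene, which makes the family a feedback loop. In mast cells, EGR factors are known as early products of IgE receptor crosslinking and as regulators of cytokine genes.

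Libraries held 9515004 to 24605689 counts on genes, with the lowest total in Control replicate 2, and 3 counts corresponded to 0.122 to 0.315 CPM (counts per 1000000 counts of the library), which covers counting error only. The mast cell genes Kit, Fcer1a and Cpa3 were abundant throughout, with group means of 2000 to 2183 CPM for the stem cell factor receptor Kit, 4836 to 6441 CPM for the IgE receptor subunit Fcer1a, and 24500 to 31300 CPM for the protease Cpa3. Control replicate 1 stood apart from the other Control libraries, with a chi-square per degree of freedom of 82.1 and 130.9 against them, compared with 6.14 between replicates 2 and 3. Neutrophil markers, all 6 of them detected in each group, summed to 196.2 CPM in Control replicate 1 and at most 6.99 CPM in the other Control libraries, to 130.4 to 141.8 CPM in IgE+BSA, and to 151.9 to 179.5 CPM in IgE+BSA+Luteolin. Spread in Control was also wide for some other marker genes, named after their values had been seen. Mean ± SD in Control was 718 ± 898.1 CPM for the mast cell gene Mcpt4 and 5919 ± 3664 CPM for Cma1. It was 157.7 ± 238 CPM for the basophil gene Mcpt8. In IgE+BSA the SDs of these genes were 68.7, 546.5 and 20.8 CPM. The other mast cell and basophil markers spread less for their level in Control. Comparisons with Control are therefore given with and without Control replicate 1.

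Promoter sequence is shown for members whose transcripts differed in how far they moved, so that the letters a reader would look for can be compared. RefSeq windows on GRCm38.p6, each 300 bases long with 250 bases before a transcription start and 50 after it, were matched for 3 of the 5 members, Egr2, Nab1 and Nab2. The first line below holds 150 bases of Egr2 upstream of a start, chr10:67537719-67537868 on the plus strand, with a CArG box, the kind of site that SRF binds, and the cyclic AMP response half-site TGACG on either strand in capitals. In the second, 150 bases of Nab1 upstream of its start, chr1:52500449-52500598 on the minus strand, the capitals mark the EGR motif GCGNGGGCG on either strand and the half-site. The third holds the same stretch of Nab2, chr10:127666704-127666853 on the minus strand, where these searches found no match, which says only that these letters are not in this window. All 3 stretches lie within the genes as annotated above. The window of Nab2 does not reach the 5' end of its gene, at 127668568, and sequence at that end was not searched.
Egr2: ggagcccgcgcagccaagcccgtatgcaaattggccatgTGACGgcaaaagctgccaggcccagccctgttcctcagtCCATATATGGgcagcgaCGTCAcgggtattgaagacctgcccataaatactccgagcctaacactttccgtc
Nab1: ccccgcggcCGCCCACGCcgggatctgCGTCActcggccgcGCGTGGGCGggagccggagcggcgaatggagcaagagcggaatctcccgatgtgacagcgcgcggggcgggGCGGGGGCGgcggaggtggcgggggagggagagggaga
Nab2: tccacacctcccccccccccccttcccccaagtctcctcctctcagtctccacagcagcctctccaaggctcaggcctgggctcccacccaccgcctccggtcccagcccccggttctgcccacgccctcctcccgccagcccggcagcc

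The Egr2 table entry has 5 windows, because RefSeq lists several starts, and the one shown was chosen after the motifs had been seen. A CArG box was found in 4 of the 5, which overlap in part and hold 2 distinct sites between them. At least 1 such box was found for 1.81% of the 27025 genes in the table, and in 1.63% of its 32851 windows. The window shown held no match to the EGR motif. Its CArG box began 72 bases before the start, between half-sites that began 111 and 55 bases before it. The half-site TGACG alone is common, in 20.8% of all windows, and the full site TGACGTCA, in 1.79% of them, was not found in the windows of these 3 members. Nab1 held 3 matches to the EGR motif, beginning 141, 109 and 38 bases before its start, and 5.55% of all windows held at least 1. The GC box GGGCGG, which can overlap the EGR motif, was found 7 times in the Nab1 window and once in that of Nab2, against 35.7% of all windows with at least 1. For Egr2, another window held 4 and a further one 1, while the window shown held none.

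Per kilobase of exon, which allows levels of different genes to be compared, Egr1 was the highest of the 5 in every group mean. In Control its level was 187.4 ± 77.7 CPM per kb (SD, n = 3), followed by Egr3 at 107.7 ± 36.8, Egr2 at 20.9 ± 2.82, Nab1 at 17.7 ± 3.91 and Nab2 at 15.3 ± 4.15. Egr1 and Egr3 could not be ordered beyond their spread, and neither could the last 3, although Nab2 was below Nab1 and Egr2 in each Control library. In IgE+BSA the order began with Egr1 at 727.3 ± 54.96 and Egr3 at 617.8 ± 74.5 CPM per kb, which again lay within reach of each other's spread, and Egr2 at 329.6 ± 14.5 stood far above Nab1 at 22.9 ± 1.84 and Nab2 at 14.4 ± 1.27. Within each IgE+BSA library Egr1 was above Egr3. In IgE+BSA+Luteolin Egr1 stood alone at 421.0 ± 46.2 CPM per kb, with Egr3 at 36.6 ± 13.3, Nab1 at 18.8 ± 0.42, Egr2 at 13.4 ± 1.01 and Nab2 at 4.23 ± 0.65. The 5 genes together took 0.137% to 0.169% of all counts in Control, 0.633% to 0.714% in IgE+BSA and 0.200% to 0.256% in IgE+BSA+Luteolin.

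**Figure D1:**
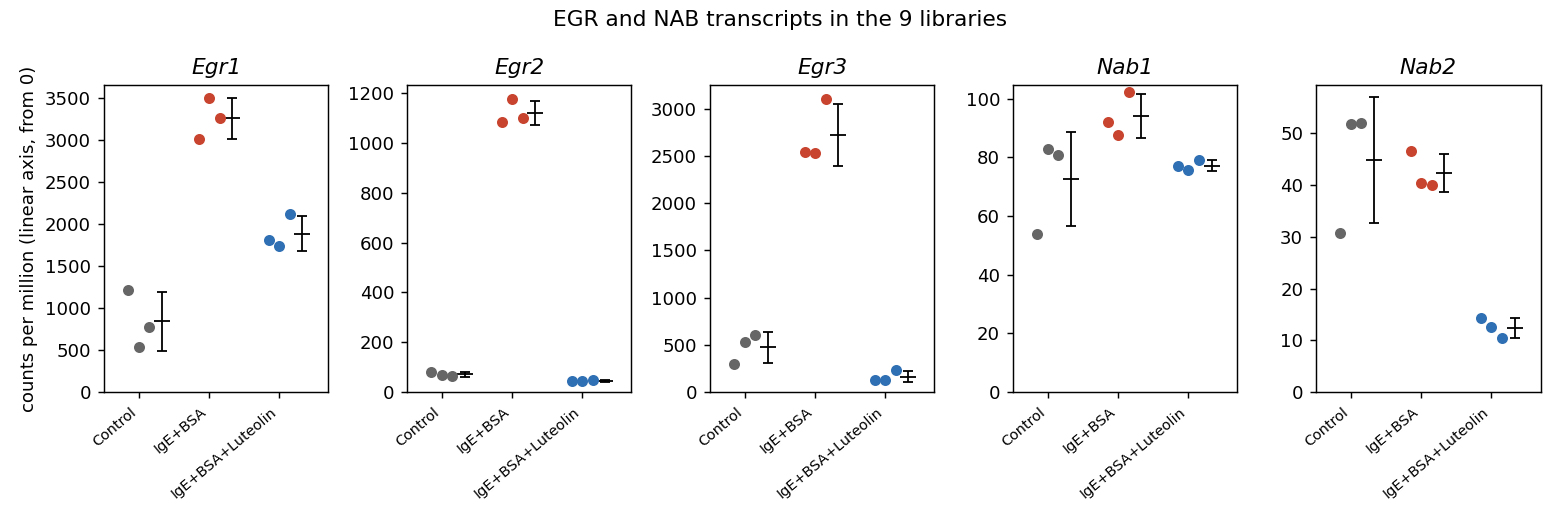
Level of each gene in CPM, on a linear axis from 0, in the 3 libraries of each group (points, replicates 1 to 3 from left to right) with the mean and SD beside them. The IgE+BSA libraries lie above all others for Egr1, Egr2, Egr3 and Nab1, and the IgE+BSA+Luteolin libraries lie below all others for Egr2, Egr3 and Nab2.

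Stimulation without luteolin was compared with Control first, which asks what IgE receptor signaling does to the family. The 3 Egr genes rose, Egr2 most, while neither Nab gene passed the test. Normalized levels of Egr2, which encodes a factor known from hindbrain and myelin development, were 81.8, 67.3 and 63.7 CPM in Control and 1085, 1176 and 1099 CPM in IgE+BSA. The groups did not overlap, and the difference was 15.8-fold, a log2 fold change of 3.98 ± 0.15 (SE; adjusted p = 4.88e-05), the seventh largest rise among 11560 genes tested. Egr3, which is known for its part in lymphocyte activation, was at 292.8, 525.8 and 605.1 CPM in Control, lowest in replicate 1, and at 2539, 2527 and 3101 CPM in IgE+BSA, a rise of 5.74-fold (log2 2.52 ± 0.27, adjusted p = 0.00389). Egr1, the founding member of the family, was at 1218, 532.7 and 770.0 CPM in Control, highest in replicate 1, and at 3011, 3504 and 3267 CPM in IgE+BSA, a rise of 3.86-fold (log2 1.95 ± 0.29, adjusted p = 0.0179). With the rise, Egr1 ranked 18 to 22 among all genes by count in the IgE+BSA libraries, from 82 to 220 in Control.

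The corepressor genes did not pass the test. Nab1 was at 54.1, 82.8 and 80.8 CPM in Control and at 92.0, 87.6 and 102.3 CPM in IgE+BSA, a log2 difference of 0.38 with a 95% interval of -0.02 to 0.78 (adjusted p = 0.269). Its libraries did not overlap between the groups, but the gap to the higher Control libraries was small. Nab2 was at 30.8, 51.8 and 52.0 CPM in Control and at 46.7, 40.4 and 40.1 CPM in IgE+BSA, a log2 difference of -0.08 with an interval of -0.56 to 0.40 (adjusted p = 0.878), and its groups overlapped. Thus 3 of the 5 genes were called higher and none lower at the threshold of 0.05 by edgeR, where 2.25% of all genes tested were called higher and 1.02% lower, and 4 of 5 had groups that did not overlap, against 28.7% of all genes. The count of 0 for lower calls among members also held at an unadjusted p of 0.05 and by DESeq2 and limma.

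Leaving out Control replicate 1 kept the 3 rises, with log2 fold changes of 2.27 for Egr1, 4.05 for Egr2 and 2.22 for Egr3 (adjusted p of 7.26e-09, 3.05e-13 and 8.68e-10), and Nab2 was then lower in IgE+BSA by 1.27-fold (log2 -0.34 ± 0.09, adjusted p = 0.00668). In that fit 22.6% of all genes were called higher and 22.4% lower. The call for Egr1 was lost, at adjusted p values of 0.0837 to 0.0976, when Control replicate 3 or any 1 of the IgE+BSA libraries was left out, with log2 fold changes of 1.89 to 2.004.

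**Figure D2:**
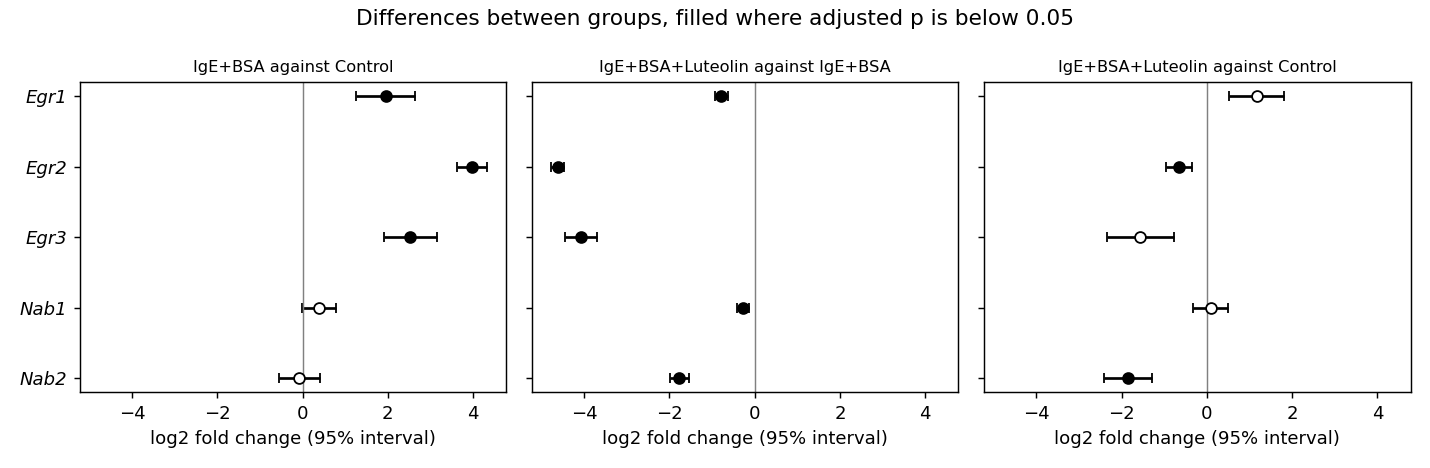
Log2 fold change of each gene with its 95% interval in the 3 comparisons, from edgeR's quasi-likelihood fit, with filled points where the adjusted p was below 0.05. The points of the middle panel run from -4.62 for Egr2 to -0.28 for Nab1, and Egr1 is the only Egr gene whose point in the right panel lies above 0.

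Luteolin was then set against IgE+BSA alone, which asks how the compound alters stimulated cells. All 5 genes were lower with luteolin, but by very different amounts. Egr2 was at 43.8, 43.2 and 49.3 CPM with luteolin against 1085 to 1176 CPM without it, a fall of 24.6-fold (log2 -4.62 ± 0.07, adjusted p = 3.14e-17), the fourth largest among the 11560 genes. Egr3 was at 125.6, 129.6 and 228.7 CPM with luteolin, highest in replicate 3, against 2527 to 3101 CPM, a fall of 16.9-fold (log2 -4.08 ± 0.17, adjusted p = 5.46e-12). Egr1 was at 1806, 1734 and 2123 CPM with luteolin against 3011 to 3504 CPM, a fall of only 1.72-fold (log2 -0.79 ± 0.07, adjusted p = 2.07e-07).

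Nab2 fell with luteolin although it had not risen with stimulation. It was at 14.3, 12.5 and 10.5 CPM with luteolin against 40.1 to 46.7 CPM in IgE+BSA, a fall of 3.40-fold (log2 -1.77 ± 0.11, adjusted p = 7.76e-10). Nab1 was at 77.0, 75.6 and 79.1 CPM with luteolin against 87.6 to 102.3 CPM, a fall of 1.22-fold (log2 -0.28 ± 0.07, adjusted p = 0.00286), the smallest of the 5. In this comparison 21.9% of all genes were called lower and 18.1% higher, and the libraries of the 2 groups did not overlap for 5 of 5 members, against 50.3% of all genes. Scaled by library size alone, 31.4% of the called genes were lower in place of 54.6%, and the Nab1 call was lost (log2 -0.17, adjusted p = 0.0523), while Egr1, Egr2, Egr3 and Nab2 stayed called. With all 9 libraries in 1 fit, the calls for Egr1 (adjusted p = 0.0778) and Nab1 (adjusted p = 0.283) were lost. Each of the 6 fits that left out 1 library kept all 5 calls, with an adjusted p of at most 0.0194.

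The luteolin group was last set against Control, to ask where the levels ended in relation to unstimulated cells. The luteolin libraries lay above all Control libraries for Egr1 and below all of them for Egr2, Egr3 and Nab2, and of these 4 differences those of Egr2 and Nab2 passed the test. The lowest luteolin library for Egr1, at 1734 CPM, exceeded the highest Control library, at 1218 CPM, with a log2 difference of 1.17 ± 0.28 that did not pass the threshold (adjusted p = 0.0732). Egr2 was lower than Control by 1.57-fold (log2 -0.65 ± 0.13, adjusted p = 0.0480), with its highest luteolin library at 49.3 CPM and its lowest Control library at 63.7 CPM. The same order held for Egr3 with a wider spread. Its corresponding values were 228.7 and 292.8 CPM, and its log2 difference of -1.56 ± 0.33 did not pass (adjusted p = 0.0568). Nab2 was lower than Control by 3.62-fold (log2 -1.85 ± 0.24, adjusted p = 0.0141), with all luteolin libraries at or under 14.3 CPM and all Control libraries at or above 30.8 CPM. Nab1 overlapped Control, with a log2 difference of 0.09 and an interval of -0.32 to 0.49 (adjusted p = 0.768).

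Of the 5 genes, 2 were thus called lower, where 2.75% of all genes were called lower and 0.285% higher, and 4 of 5 had groups that did not overlap, against 28.5% of all genes. These calls turned on single libraries. Without Control replicate 1, Egr1 was called higher (log2 1.52, adjusted p = 1.78e-08), and Egr2 (log2 -0.54, 4.57e-05), Egr3 (log2 -1.82, 1.24e-07) and Nab2 (log2 -2.07, 1.90e-10) were called lower, in a fit that called 29.9% of all genes higher and 30.1% lower. When Control replicate 2, Control replicate 3 or any luteolin library was left out instead, no member passed, with an adjusted p of 0.107 to 0.262 for Egr2 and 0.0561 to 0.109 for Nab2, although the log2 fold changes stayed between -0.72 and -0.61 and between -1.97 and -1.73. Control replicate 1 was the only Control library whose neutrophil marker sum lay near those of the stimulated groups, so that leaving it out widened this difference between the groups. The part of that difference in these results was not tested.

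The 3 Egr genes were lower with luteolin by unequal amounts, and the makeup of the summed EGR transcripts differed accordingly. Per kilobase, Egr1 made up 57.8% ± 15.2 (SD, n = 3) of the summed EGR level in Control, 43.4% ± 2.28 in IgE+BSA and 89.5% ± 1.60 in IgE+BSA+Luteolin. The share of Egr2 was 6.68% ± 0.98, 19.7% ± 1.12 and 2.85% ± 0.14 in the same order, and that of Egr3 was 35.5% ± 15.02, 36.9% ± 3.19 and 7.63% ± 1.73. Control replicate 1, with 75.0% Egr1 and 18.4% Egr3, differed from Control replicates 2 and 3, where Egr1 made up 46.1% and 52.4%. The summed EGR level was 316.0 ± 53.1 CPM per kb in Control, 1675 ± 97.1 in IgE+BSA and 470.9 ± 60.2 in IgE+BSA+Luteolin, and the summed NAB level was 32.9 ± 8.06, 37.3 ± 1.95 and 23.1 ± 0.50. These levels are of RNA, and the amounts of protein were not measured.

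**Figure D3:**
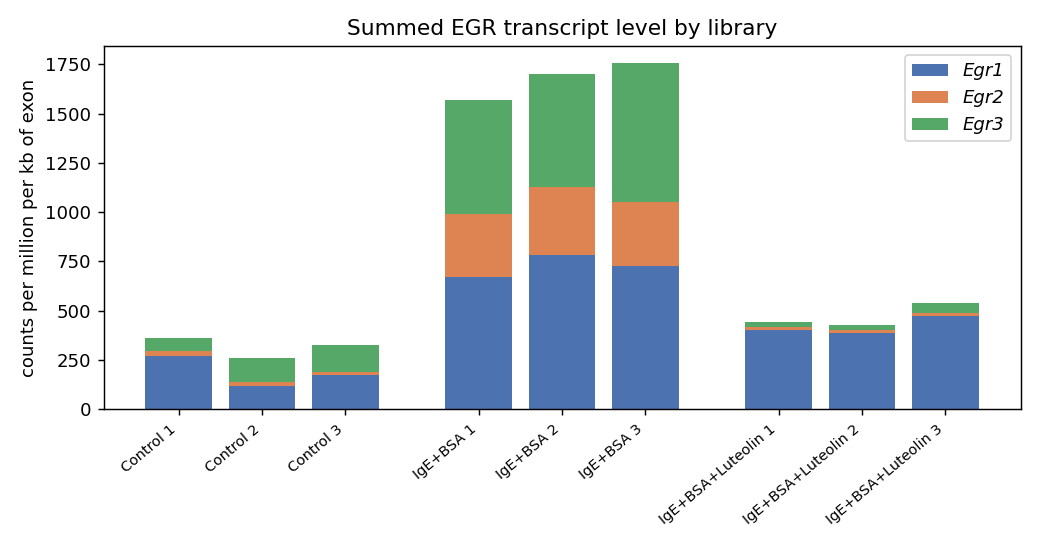
Summed level of the 3 Egr genes in each library, in CPM per kilobase of exon, on a linear axis from 0, with the part of each gene in color. The IgE+BSA bars reach 1567 to 1756 and hold all 3 genes, while the IgE+BSA+Luteolin bars reach 428.8 to 539.9 and are 87.7% to 90.7% Egr1.

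Ratios inside a library do not depend on the scaling between libraries, and 6 of them were compared in each of the 3 comparisons by a two-sided exact permutation test, which with 3 against 3 libraries cannot go below p = 0.1. On the log2 scale of the counts, Egr2 to Egr1 was -3.90, -2.98 and -3.60 in Control, -1.47, -1.58 and -1.57 in IgE+BSA, and -5.37, -5.33 and -5.43 with luteolin, so that the 3 groups were separate. Egr3 to Egr1 was -2.06, -0.02 and -0.35 in Control and -0.25, -0.47 and -0.08 in IgE+BSA, which overlapped (exact p = 0.7), and -3.85, -3.74 and -3.21 with luteolin, below both. Nab2 to Nab1 was -0.81, -0.68 and -0.64 in Control, -0.98, -1.12 and -1.35 in IgE+BSA and -2.43, -2.59 and -2.92 with luteolin, and thus shifted away from Nab2 at each step. The summed EGR to the summed NAB level, per kilobase, had a mean log2 ratio of 3.28 ± 0.60 in Control, 5.49 ± 0.12 in IgE+BSA and 4.34 ± 0.19 with luteolin. Among the 18 ratio comparisons, 17 had the smallest exact p possible, 0.1, which is 0.106 after adjustment over the 18, so none could pass the threshold in this design.

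**Figure D4:**
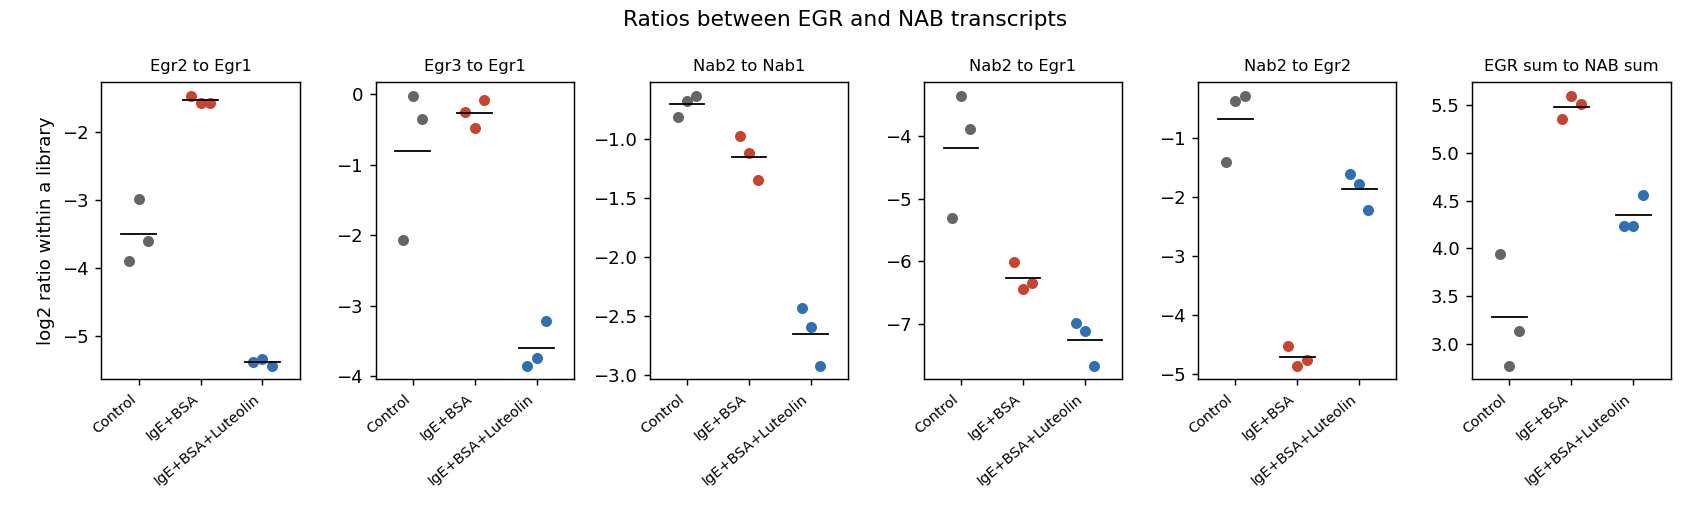
Log2 ratio of transcripts inside each library (points, replicates 1 to 3 from left to right) with the group mean as a line, by counts for the first 5 panels and by counts per kilobase for the sums. Control and IgE+BSA overlap only for Egr3 to Egr1, and the luteolin libraries lie apart from both other groups in all 6 panels.

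Egr4, the remaining Egr gene, is known to lack the NAB-binding domain of the others. It did not reach a median of 1 CPM over the 9 libraries and so had no place in the tests above. Its raw counts were 3, 1 and 1 in Control, 127, 85 and 111 in IgE+BSA, and 6, 9 and 6 with luteolin, with group means of 0.095, 5.14 and 0.312 CPM. In a fit without the filter, its log2 difference between IgE+BSA+Luteolin and IgE+BSA was -3.99 ± 0.34 (edgeR, adjusted p = 1.5e-29). No fold change against Control is given, since its counts there were at or under 3.

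Nab2 shares sequence with genes on the opposite strand, and the strand setting of the counting is not given in the sources used here. The exons of Nemp1, a nuclear envelope protein gene, overlap those of Nab2 by 151 bases and the exons of Stat6, a transcription factor gene of IL-4 signaling, by 40 bases. Neither passed the test with luteolin against IgE+BSA, at log2 0.18 (adjusted p = 0.212) for Nemp1 and 0.03 (adjusted p = 0.665) for Stat6. The antisense gene Gm16229, with 1050 bases of exon in common, held 0 or 1 count in every library. Egr1, Egr2, Egr3 and Nab1 had no overlapping gene in the annotation.

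The genes with the most similar pattern were found by the root-mean-square difference of log2 CPM, centered per gene, over the 9 libraries. For Egr1 these were Ptprf, a receptor tyrosine phosphatase gene (0.24), Nr4a1, an immediate-early nuclear receptor gene (0.24), and Thbs1, which encodes thrombospondin (0.30). Nr4a1 had a mean with luteolin, 1160 ± 48.7 CPM, between those of Control, 441.1 ± 178.3, and IgE+BSA, 2455 ± 31.5. That it shares this order with Egr1 follows from its choice by pattern. Nearest to Egr2 were Atf3, a stress-induced transcription factor gene (0.18), Tagap, a GTPase-activating protein gene (0.41), and Trib1, a pseudokinase gene (0.50), and nearest to Egr3 were Csf1, the macrophage colony-stimulating factor gene (0.46), Olr1, a receptor gene for oxidized lipoprotein (0.50), and Nfkbiz, an NF-kB regulator gene (0.50). Atf3 was at 16.5 ± 1.71, 216.8 ± 5.78 and 10.8 ± 0.98 CPM in Control, IgE+BSA and IgE+BSA+Luteolin. For Nab2 the nearest were Pnrc1, a nuclear receptor coactivator gene (0.18), Tsc22d3, known as a glucocorticoid-induced gene (0.18), and Gm43672 (0.21), which with luteolin averaged 29.7, 19.1 and 2.23 CPM against 113.0, 54.4 and 9.62 CPM in IgE+BSA. Nab1, with the smallest difference of the 5 with luteolin, was nearest to Pi4k2b (0.02), Ccny (0.05) and Clint1 (0.06). Between members, Egr2 and Egr3 were closest (0.71) and Egr2 and Nab1 farthest apart (1.91).

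Other genes of the pathway were taken from lists. Of 22 immediate-early genes tested, other than the Egr genes, 13 rose with IgE+BSA against Control (median log2 1.68, against 0.02 over all genes), where 2.25% of all genes rose. All 22 fell with luteolin against IgE+BSA (median -2.17, against 0.02), where 21.9% of all genes fell. The largest falls were in Atf3 (log2 -4.33 ± 0.07), the ERK phosphatase gene Dusp2 (-4.08 ± 0.44), the nuclear receptor gene Nr4a3 (-3.86 ± 0.14) and Klf4 (-3.59 ± 0.37), all with an adjusted p of at most 1.57e-06. Dusp2 and Klf4 were low, at 2.87 and 4.05 CPM in IgE+BSA and at 0.161 and 0.332 CPM with luteolin. The luteolin level of Dusp2 was near that of 3 counts, and the size of these falls is less precise. Against Control, 3 of the 22 were higher with luteolin, namely Fos (2.56), Nr4a1 (1.39) and Nr4a2 (2.18), and 4 were lower, namely Ier3 (-1.05), Ier5 (-0.99), Myc (-0.86) and Klf2 (-1.71), where genes outside the naming rule were chosen after their values had been seen. The shares of all genes were 0.285% higher and 2.75% lower. Without Control replicate 1, 22 of the 22 were called higher with IgE+BSA, beside 22.6% of all genes, and 6 higher and 12 lower with luteolin against Control, beside 29.9% and 30.1% of all genes. When any other library was left out instead, 0 or 1 were called higher and 0 to 3 lower with luteolin against Control, with none higher without Control replicate 3 or without luteolin replicate 1 or 2.

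**Figure D5:**
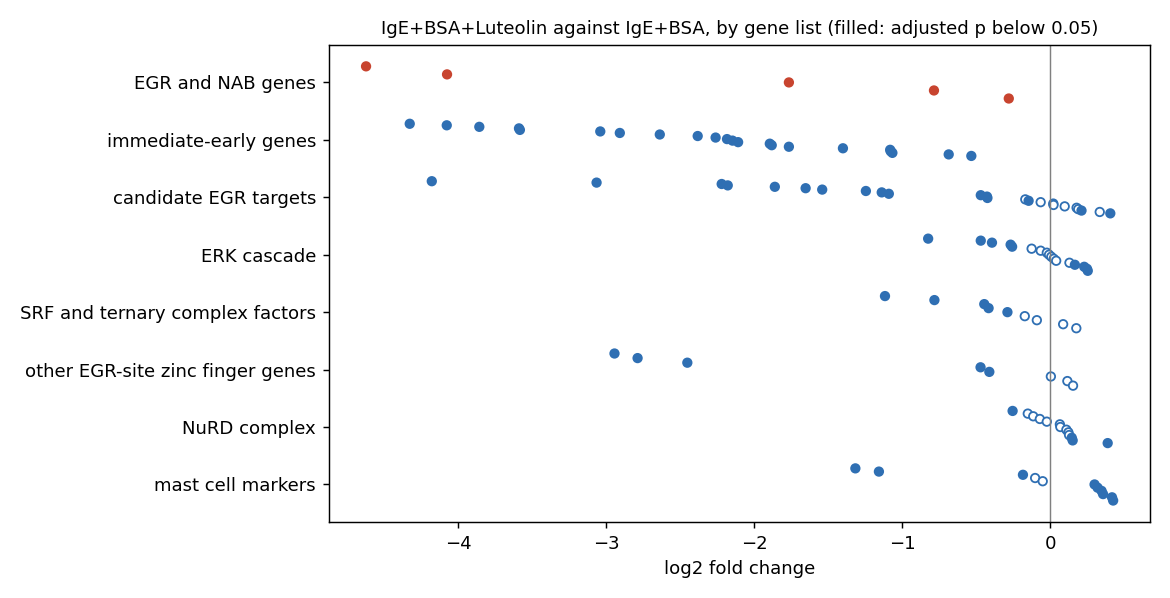
Log2 fold change of single genes in IgE+BSA+Luteolin against IgE+BSA by gene list, with each point 1 gene and filled points where the adjusted p was below 0.05. All 5 EGR and NAB genes and all 22 immediate-early genes tested lie below 0, while the ERK cascade and NuRD genes lie on both sides of 0.

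Genes that act upstream of the Egr genes had medians nearer to 0. Of 17 ERK cascade genes, from the adaptors to the kinases, 5 were lower and 4 higher with luteolin against IgE+BSA (median log2 -0.01), beside 21.9% of all genes called lower and 18.1% higher. With all 9 libraries in 1 fit, 1 of the 17 was called lower and 0 higher, where 7.93% of all genes were called lower and 1.52% higher. Scaled by library size alone, 3 were lower and 6 higher, and the count of 4 higher was 2 without IgE+BSA replicate 1 or luteolin replicate 1 or 2. Those that fell included Braf (-0.47 ± 0.10), Sos1 (-0.39 ± 0.08) and Sos2 (-0.27 ± 0.08), and the 4 higher genes, named after their values had been seen, were Grb2, Map2k1, Mapk3 and Rps6ka1 with log2 fold changes of 0.17 to 0.25. With IgE+BSA against Control, 0 of the 17 were called by edgeR, 3 higher and 1 lower at an unadjusted p of 0.05, 1 by DESeq2 and 0 by limma. Without Control replicate 1, 5 were called higher and 3 lower, beside the 22.6% and 22.4% of all genes called in that fit. Of 9 genes of SRF, its partners and related factors that were tested, 5 were lower with luteolin against IgE+BSA (median -0.29), beside 21.9% of all genes, and 2 were lower with all 9 libraries in 1 fit, beside 7.93%. The largest falls were in Srf itself (-1.12 ± 0.08, adjusted p = 7.96e-09), Crem (-0.78 ± 0.09), Mrtfb (-0.45 ± 0.12) and Elk4 (-0.42 ± 0.08). Transcript levels of these genes say nothing of the activity of their proteins, which these libraries do not measure. By immunoblot, the study reported lower phosphorylation of ERK and other MAP kinases with luteolin in stimulated BMMCs.

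Genes for which control by EGR factors has been described were followed on the other side. Of 24 tested, 8 rose and 1 fell with IgE+BSA against Control, beside 2.25% and 1.02% of all genes, the 1 being Pdgfa (log2 -1.10, adjusted p = 0.0482), named after its value had been seen. With luteolin against IgE+BSA, 14 fell and 2 rose (median log2 -0.43), beside 21.9% and 18.1% of all genes. Those that fell included the cytokine gene Tnf (-4.18 ± 0.08), the transcription factor gene Nfil3 (-2.22 ± 0.06) and the cytokine gene Il13 (-2.18 ± 0.07). The 2 that rose were the ubiquitin ligase gene Rnf128 (0.40) and Trp53 (0.21), again named after their values had been seen. With all 9 libraries in 1 fit, 10 were lower and 1 higher, beside 7.93% and 1.52% of all genes. Scaled by library size alone, 13 were lower and 5 higher, where 31.4% of all called genes were lower. Tnf had a mean of 760.0 CPM in IgE+BSA and 42.0 CPM with luteolin, and its log2 difference from Control was 1.49 (adjusted p = 0.0374), a call that was lost when any library other than Control replicate 1 was left out. Without Control replicate 1, 12 of the 24 were called higher and 3 lower with IgE+BSA against Control, beside 22.6% and 22.4% of all genes. Each of the other 5 fits that left out 1 library called 3 higher and 0 lower, and the replicate block called 5 and 0, so that the call for Pdgfa was lost in all of these. The list rests on background knowledge, and these data hold no measurement of EGR binding.

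The partners of the NAB proteins also had a median near 0. Of 13 NuRD complex genes, 3 were higher with luteolin against IgE+BSA, namely Hdac2 (log2 0.39 ± 0.07), Mta2 (0.15 ± 0.05) and Mbd2 (0.14 ± 0.05), and 1 was lower, Chd3 (-0.26 ± 0.05), with a median of 0.07. The share of all genes called higher was 18.1%, and the count of 3 was 0 with all 9 libraries in 1 fit, where that share was 1.52%, 8 with library size alone and 1 without IgE+BSA replicate 1 or 3 or luteolin replicate 1 or 2. Chd4, which encodes the NuRD subunit bound by NAB2, was not called (0.11, adjusted p = 0.135). With IgE+BSA against Control, 0 of the 13 were called by edgeR, 0 at an unadjusted p of 0.05, and 0 by DESeq2 and limma. Without Control replicate 1, 7 were called higher, beside 22.6% of all genes. Of 8 other zinc finger genes whose proteins bind similar GC-rich sites, 5 were lower with luteolin against IgE+BSA (median -0.44), beside 21.9% of all genes, namely Klf10 (-2.94 ± 0.13), Klf9 (-2.79 ± 0.09), Klf11 (-2.45 ± 0.13), Sp1 (-0.47 ± 0.06) and Sp4 (-0.41), the last named after its value had been seen. With all 9 libraries in 1 fit, 3 of the 8 were lower, beside 7.93% of all genes. Of 11 mast cell markers, 6 were higher and 3 lower with luteolin against IgE+BSA, beside 18.1% and 21.9% of all genes. The largest differences were the falls of the tryptase gene Tpsab1 (log2 -1.32 ± 0.08, adjusted p = 3.01e-10) and of Hdc, which encodes the enzyme that makes histamine (-1.16 ± 0.08, adjusted p = 5.51e-09). Mcpt4 was at 0.42 ± 0.06, Fcer1a at 0.42 ± 0.06 and Cpa3 at 0.36 ± 0.06, and Kit was not called (-0.10, adjusted p = 0.0987). The summed level of the markers, to which Cpa3 and the tryptase gene Tpsb2 contributed most, was 59100 to 65950 CPM in IgE+BSA and 70650 to 81860 CPM with luteolin. Tpsab1 and Tpsb2 are similar in sequence, and how reads that match both were counted is not given in the sources used here. In the same comparison, 3 of 3 basophil markers (log2 0.20 to 0.24) and 2 of 6 neutrophil markers were called higher, beside 18.1% of all genes. Of 3 eosinophil markers 1 was called lower, and of 4 macrophage markers tested 0 were called.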

How the data were processed

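RNA of 9 BMMC libraries, 3 each of Control, IgE+BSA and IgE+BSA+Luteolin, was grouped by the sample labels. Per the labels and the methods of the study, the authors prepared TruSeq Stranded mRNA libraries, cleaned reads with HTStream and aligned them with STAR 2.7.0f to mm10, and they deposited raw counts per Ensembl gene without normalization. The annotation release, strand setting and handling of multiply mapped reads are not given in the sources used here.

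Genes with a median CPM above 1 over the 9 libraries (11560 of 47643, including all 5 members) were tested by the quasi-likelihood method of edgeR 4.0.16 (R 4.3.3), two-sided, on TMM-scaled counts of the 2 groups compared. Benjamini-Hochberg adjustment covered all genes tested, and 0.05 was the threshold. CPM values are TMM-normalized, and lengths are merged exons of GENCODE genes. Ratios used counts plus 0.5 and an exact permutation test. The procedure was tested on simulated data. Replicates were checked for repeated deposits, and the most alike pair still differed by more than counting noise (chi-square of 3.93 per degree of freedom). The alternatives were DESeq2 1.42.0, limma 3.58.1, other scalings and filters, all 9 libraries in 1 fit, a replicate block, thinning to 9515004 counts, and each library left out in turn.

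The members and gene lists were chosen with earlier results of these data known. Besides the members, the genes named are the 3 most similar in pattern to each, up to 4 called genes per list with the largest change with luteolin against IgE+BSA, Egr4, genes that overlap a member, and Kit, Fcer1a and Cpa3. Some genes outside this rule were named after their values had been seen, as stated beside most of them, and Chd4 and Tpsb2 are also among them. Some genes that this rule selects are not reported here.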

Additional observations from a re-analysis of the deposited data

How the results depend on the processing

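Among the 240 recomputed member fold changes, 210 kept their side of the threshold, 19 lost a call, 11 gained one, and 0 calls reversed; differences without a call, those of Nab1 and Nab2, could change sign when a library was left out or, for Nab2, after thinning. With luteolin against IgE+BSA, library size alone gave Nab1 a log2 fold change of -0.17 (adjusted p = 0.0523), and 1 fit of all 9 libraries gave Egr1 -0.79 (0.0778) and Nab1 -0.28 (0.283), so that 3 of the 5 members were called. With luteolin against Control, calls were gained for Egr1 and Egr3 by DESeq2 (1.16 and -1.56), without the filter (1.22 and -1.49) and with all 9 libraries in 1 fit (1.17 and -1.56), each with 4 members called, and for Egr3 after thinning (-1.57, adjusted p = 0.0480). The call for Egr2 was lost by limma (-0.64, adjusted p = 0.0502), which called 1 member. Whether the replicate numbers pair the libraries was not settled: deviations from the group means correlated at -0.247 to 0.287 between libraries with the same number, and in 9 of 18 cases a library correlated best with its own number out of 3. With luteolin, the mean correlation was 0.141 against IgE+BSA and 0.111 against Control for the same number, and -0.0709 and -0.0603 for different numbers. In IgE+BSA against Control these means were -0.0216 and 0.0131. With the replicate block, Egr2 (-0.64, adjusted p = 0.0960) lost and Egr3 (-1.55, adjusted p = 0.0259) gained its call against Control, and the calls over all genes were 144, 5582 and 212 in place of 378, 4624 and 351 for IgE+BSA against Control, luteolin against IgE+BSA and luteolin against Control. The same counts were 1227 and 1379 by DESeq2 for the comparisons with Control, 604 and 793 without the filter, and 1105, 1093 and 1251 with all 9 libraries in 1 fit. Leaving out 1 library gave 90 to 5207, 3242 to 5082 and 2 to 6931 calls, each of the highest counts with Control coming without Control replicate 1. Over the same settings, the log2 fold change ranged from 1.70 to 2.27 for Egr1 and -0.34 to 0.045 for Nab2 in IgE+BSA against Control, and from -0.09 to 0.19 for Nab1, 0.93 to 1.52 for Egr1, -0.72 to -0.54 for Egr2, -1.89 to -1.35 for Egr3 and -2.07 to -1.73 for Nab2 in luteolin against Control, with 0 to 4 members called. The difference in the log2 ratio of Egr3 to Egr1 between IgE+BSA and Control, 0.54, ranged from -0.081 without Control replicate 1 to 0.94. Library size alone moved the median log2 fold change of all genes to -0.15 in IgE+BSA against Control, where 63.0% of calls were lower in place of 31.2% (51.2% by DESeq2, 47.6% with upper-quartile factors, 11.8% with the block), and to 0.13 in luteolin against IgE+BSA, where 31.4% were lower in place of 54.6% (38.2% with upper-quartile factors, 83.9% with all 9 libraries in 1 fit). The causes were not tested. With 3 libraries a group and 1 Control library apart from the others, comparisons with Control are the least precise.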
